A study of Mus musculus with 12 samples.

Results

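Bone marrow libraries labelled as VE-cadherin-positive endothelial cells were compared between mice transplanted with acute myeloid leukaemia (AML) and mice without a transplant. They are 6 of the 12 libraries of the series, chosen by their titles: 3 from marrow with AML and 3 from control marrow. All mice were of the VECadCre-tdTomato line, in which cells that have expressed a Cre recombinase driven by the VE-cadherin promoter carry a red fluorescent reporter. The AML mice had received leukaemia cells with the Trp53(R172H/Δ) genotype, which pairs a mutant allele of this tumour suppressor gene with a deleted allele, and the control mice are described as normal. The other 6 libraries came from lungs of the same kinds of mice and enter below where the marrow effect is set against the lung effect. The labels give neither age nor sex, and they do not say whether the Cre is inducible, how the cells were isolated or whether the 3 libraries of a group came from 3 mice. The p-values therefore measure the spread between these samples, which may be technical. In lines where such a driver acts from the embryo onward, blood cells descended from haemogenic endothelium carry the reporter as well.

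Bone marrow vessels are lined by arterial endothelium and by wide, thin-walled sinusoids through which new blood cells leave. Reticular stromal cells that wrap these vessels make CXCL12 and Kit ligand, which hold stem cells in place, and red cell precursors mature beside the sinusoids in clusters around macrophages. Leukaemia is known to displace normal red cell production and to alter vessels and stroma of the marrow.

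Total counts were 12.8, 21.0 and 24.8 M in AML libraries 1, 2 and 3, and 21.8, 21.4 and 17.0 M in control libraries 1, 2 and 3. Levels are given in CPM, counts per M counts after scaling by factors that correct for library composition, in the order of libraries 1, 2 and 3. At least 1 count was found for 19338 to 19559 genes in AML libraries and for 21008 to 22264 genes in controls. Rank correlations between libraries (Spearman, computed over genes, not over replicates) ran from 0.910 to 0.939 between AML libraries, from 0.970 to 0.976 between controls, and from 0.758 to 0.862 across the groups. On the leading components, which held 61.8% and 17.3% of the variance, component 1 parted the groups and component 2 set AML library 3 apart from AML libraries 1 and 2.

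The labelled cell type was checked against its defining genes, and its transcripts were scarce in both groups. Cdh5, which encodes VE-cadherin itself, had 0.434, 1.09 and 0.638 CPM in AML libraries and 3.71, 6.34 and 4.92 CPM in controls. All 3 AML values lay below all 3 control values (log2 fold change -2.77 ± 0.70 (SE), adjusted p = 0.0189, edgeR quasi-likelihood test), and the call was lost when any single control was left out (adjusted p = 0.0620, 0.0984 and 0.0682 without control 1, 2 and 3). Pecam1, an adhesion molecule of endothelium, had 0.796, 2.75 and 8.97 CPM in AML and 8.84, 14.3 and 10.2 CPM in controls, so the groups overlapped through AML library 3 (adjusted p = 0.214, or 0.0200 without AML library 3). Ptprc, the leukocyte phosphatase CD45, had 0.145, 5.72 and 0.199 CPM in AML and 8.26, 5.07 and 2.65 CPM in controls (adjusted p = 0.454, or 0.0137 without AML library 2). Summed over 20 pan-endothelial genes, all detected in both groups, counts took 0.0334%, 0.0284% and 0.0323% of the AML libraries and 0.0270%, 0.0399% and 0.0396% of the controls (exact permutation p = 0.4, two-sided). With 3 libraries against 3, this exact test cannot go below 0.1. The markers thus go against the label in both groups, and the libraries are named below by their labels only. In such bulk samples, fewer cells of a type and less RNA per cell cannot be told apart.

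**Figure D1:**
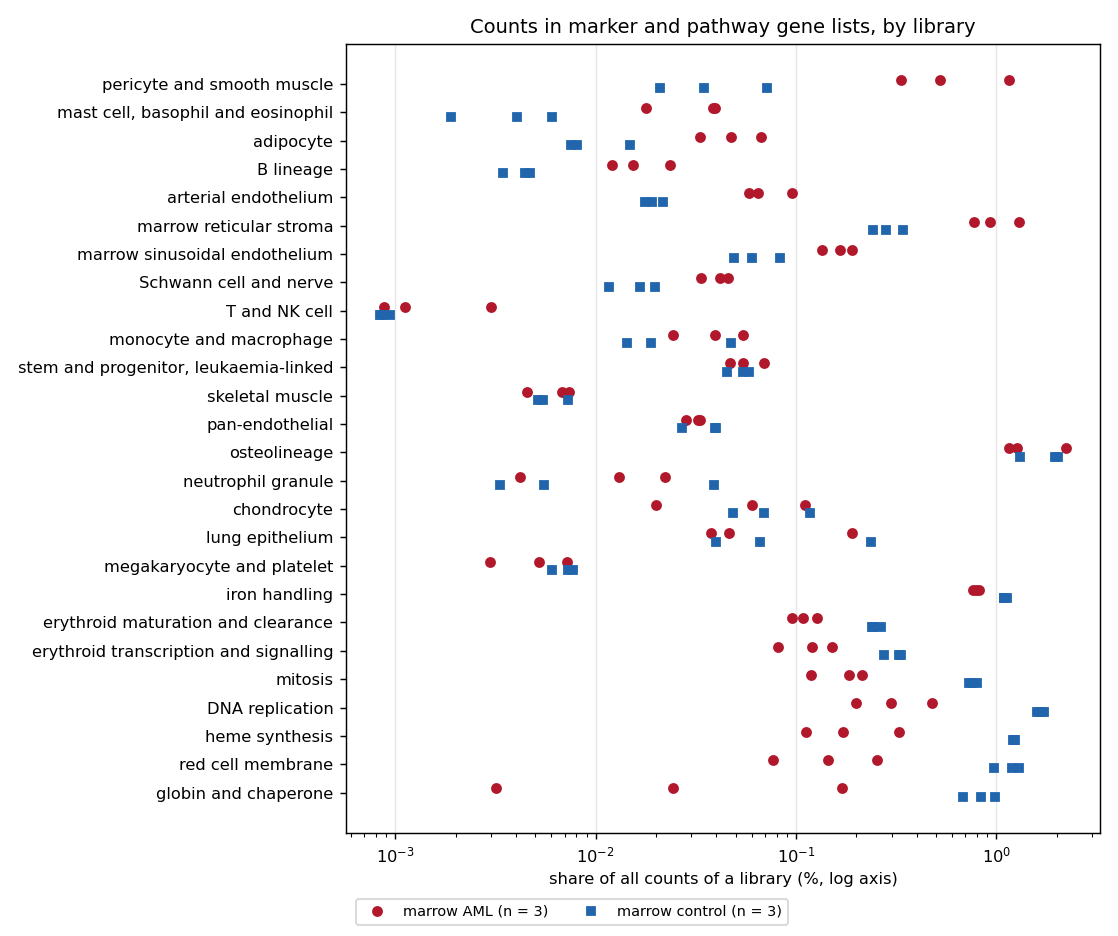
Share of all counts of a library (%, log axis) taken by each marker or pathway gene list, with 1 point per library for marrow AML (circles, n = 3) and marrow control (squares, n = 3), ordered by the ratio of the group means. Pan-endothelial shares overlap between the groups, erythroid and cell division lists lie lower in AML, and pericyte and reticular stroma lists lie higher.

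Of 55291 gene symbols, 15088 had enough counts to be tested, and 5467 of them (36.2%) passed an adjusted p of 0.05. Higher in AML were 2924 genes (19.4% of those tested) and lower 2543 (16.9%), and the median log2 fold change over all tested genes was 0.02. The AML and control values of 8123 genes (53.8%) did not overlap, with AML above control for 26.7% and below for 27.2%. Over all called genes, more rises than falls were large. Of the higher genes, 864 changed by more than 3 on the log2 scale, against 381 of the lower ones, counted at any level. Among called genes without overlap that averaged at least 200 CPM in the higher group, 286 were higher and 632 lower. Predicted genes and the other classes passed over in naming are left out of those last counts. With libraries scaled by their totals alone the median of all genes moved to 0.19, and 3360 genes were called higher and 1963 lower, so higher calls made up 63.1% in place of 53.5%. Leaving out 1 control left 3389, 3162 and 3597 calls (without control 1, 2 and 3), while leaving out 1 AML library left 4755 to 5826. AML libraries varied more among themselves, with a median SD of 0.498 per gene on the log2 CPM scale, against 0.321 in controls.

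**Figure D2:**
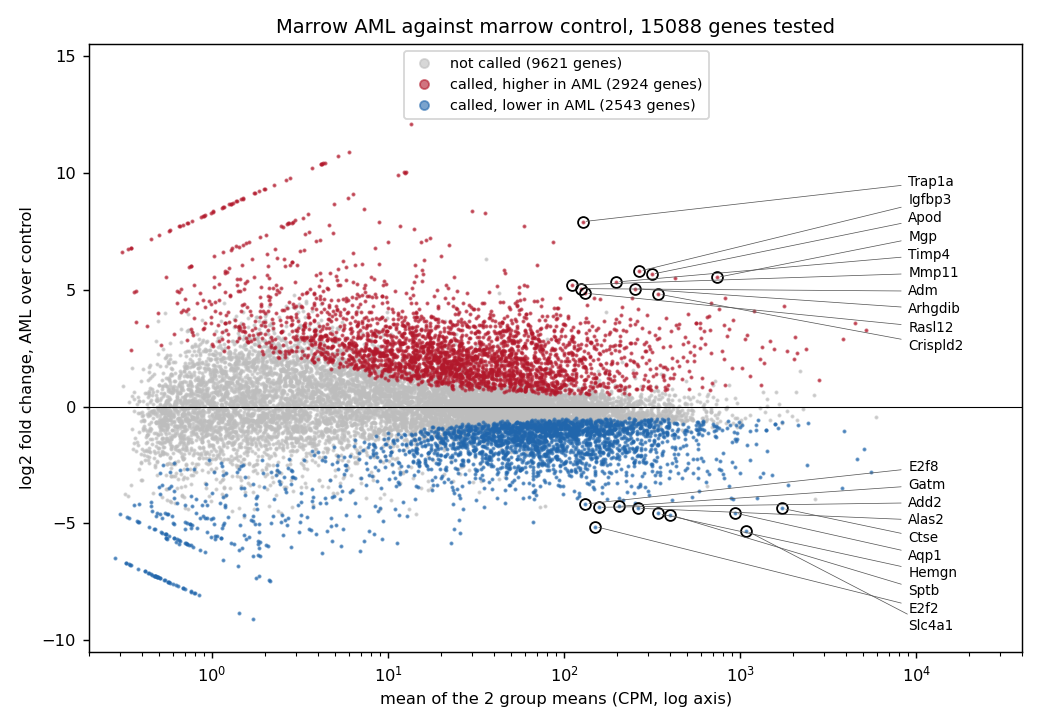
Log2 fold change of AML over control for each of 15088 tested genes (y) against the mean of the group means (x, CPM, log axis), with genes called higher in red and lower in blue. Circles mark 20 well-expressed genes, 10 with the highest and 10 with the lowest fold change, described in the text.

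The 10 largest rises in genes that averaged 200 CPM or more in AML, with every AML library above every control, were mostly in secreted and matrix-associated proteins. The top one, Trap1a, an X-linked gene (chrX:139333683-139338169, GRCm38) known as a tumour rejection antigen of mice, had 247, 278 and 235 CPM in AML and 0.195, 0.195 and 2.96 CPM in controls (log2 fold change 7.90 ± 0.99, adjusted p = 0.00174). It was thus near absent from all controls and similar in the 3 AML libraries. Igfbp3, which binds insulin-like growth factors, had 426, 709.9 and 440.5 CPM in AML and 9.38, 9.75 and 9.40 CPM in controls (log2 fold change 5.79 ± 0.29, adjusted p = 0.000445). Mgp, the matrix Gla protein that inhibits calcification of vessel walls and cartilage (chr6:136872435-136875823, GRCm38), had 1361, 1422 and 1546 CPM in AML and 42.8, 31.6 and 19.99 CPM in controls (log2 fold change 5.52 ± 0.34, adjusted p = 0.000735). Mgp was even among AML libraries, while Igfbp3 was highest in AML library 2. Apod, which encodes a lipid-binding protein, was uneven, with 344, 180.1 and 1325 CPM in AML and 23.1, 3.90 and 9.65 CPM in controls (log2 fold change 5.66 ± 1.002, adjusted p = 0.00526). Timp4, an inhibitor of matrix proteases, with 289, 173 and 691 CPM, and Rasl12, a Ras-like protein, with 214, 123 and 425 CPM, shared this pattern in AML, highest in library 3 and lowest in library 2. In controls they stood at 16.7, 3.31 and 8.83 CPM for Timp4 and 11.7, 3.22 and 11.6 CPM for Rasl12. Crispld2, a secreted glycoprotein, had 714, 343 and 926 CPM in AML and 31.1, 12.9 and 26.7 CPM in controls. Arhgdib, a signalling protein abundant in blood cells, had 448, 552 and 474 CPM in AML and 20.5, 8.29 and 16.0 CPM in controls. These are log2 fold changes of 5.32 for Timp4, 4.85 for Rasl12, 4.81 for Crispld2 and 5.04 for Arhgdib. The pericyte list described below was also highest in AML library 3 and lowest in AML library 2, and its part in the uneven genes was not tested.

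Genes of red cell precursors led the falls. Slc4a1, the anion exchanger of the red cell membrane (chr11:102348824-102366203, GRCm38), had 147, 12.53 and 1.08 CPM in AML and 2319, 2636 and 1383 CPM in controls (log2 fold change -5.31 ± 1.52, adjusted p = 0.0300). AML library 1 was the highest and AML library 3 the lowest of the AML libraries, and the call was lost without AML library 2 (adjusted p = 0.0877) and without control 1, 2 or 3 (adjusted p = 0.0701, 0.0786 and 0.0702). Sptb, the erythroid spectrin beta chain, showed the same spread, with 62.5, 30.2 and 0.757 CPM in AML and 715, 1046 and 549 CPM in controls (log2 fold change -4.63 ± 1.22, adjusted p = 0.0220, and 0.0766 without AML library 2, 0.0544, 0.0652 and 0.0571 without control 1, 2 and 3). Ctse, an intracellular aspartic protease, had 394, 83.8 and 7.34 CPM in AML and 3766, 3062 and 3084 CPM in controls (adjusted p = 0.0255, and 0.0885 without AML library 2, 0.0648, 0.0645 and 0.0692 without control 1, 2 and 3). Calls of the other 7 large falls held with each library left out, except that of Alas2 (adjusted p = 0.0545 without AML library 2). Without the filter on low counts, the calls of Slc4a1 (adjusted p = 0.164), Sptb (0.127), Ctse (0.136), Hemgn (0.0572) and Alas2 (0.0758) were lost. Aqp1, a water channel of red cells and endothelium, had 143, 59.2 and 26.3 CPM in AML and 1743, 2520.4 and 1099 CPM in controls (log2 fold change -4.55 ± 0.68, adjusted p = 0.00288). E2f2, a cell cycle transcription factor with a known role in red cell maturation, had 19.97, 3.88 and 1.67 CPM in AML and 321, 349 and 205 CPM in controls, and its relative E2f8 had 26.6, 11.04 and 4.43 CPM against 279, 277 and 195 CPM (log2 fold changes -5.13 ± 0.91 and -4.17 ± 0.63). Gatm, an enzyme of creatine synthesis, had 37.0, 6.55 and 17.3 CPM in AML and 404, 388 and 375 CPM in controls (log2 fold change -4.27 ± 0.59, adjusted p = 0.00233). In 1 model of all 12 libraries, the AML effect in marrow differed from that in lung for 17 of the 20 largest changes, and for 30.7% of all genes tested in that model (edgeR interaction). The 20 genes were chosen for their marrow effect, which is part of that difference, so nothing is read from the 2 figures side by side.

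Red cell development was described by 6 lists ordered from its regulators to its products. Of 15 transcription and signalling genes, 10 fell and 1 rose, with a median log2 fold change of -1.55. Klf1, a master regulator of erythroid genes, had 191, 127 and 103 CPM in AML and 881, 802 and 886 CPM in controls (log2 fold change -2.61 ± 0.27, adjusted p = 0.00107). Zfpm1, the partner of GATA1 known as FOG1, had 42.0, 25.2 and 16.1 CPM in AML and 295, 328 and 143 CPM in controls, and Sox6, a repressor of embryonic globin, had 39.9, 24.7 and 25.9 CPM against 127, 90.4 and 106 CPM (log2 fold changes -3.20 ± 0.46 and -1.84 ± 0.26). Each of these genes was lower in every AML library than in any control. Epor, the erythropoietin receptor, named here after its values were seen because its promoter is shown, had 91.6, 65.9 and 41.5 CPM in AML and 288, 282 and 188 CPM in controls (log2 fold change -1.93 ± 0.33, adjusted p = 0.00437). The member that rose was Ldb1, a bridging protein of the GATA1 complex that many cell types express, with 101, 105 and 101 CPM in AML and 67.3, 70.2 and 63.3 CPM in controls (log2 fold change 0.61 ± 0.16, adjusted p = 0.0210). Its call was lost when any single control was left out (adjusted p = 0.0826, 0.0887 and 0.0715 without control 1, 2 and 3).

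The 250 bases before the start of Epor are shown because GATA1 acts through the letters AGATAA, which here lie on the other strand and so read backward and complemented, in capitals (RefSeq, GRCm38.p6, chr9:21963577-21963826, minus strand).
Epor: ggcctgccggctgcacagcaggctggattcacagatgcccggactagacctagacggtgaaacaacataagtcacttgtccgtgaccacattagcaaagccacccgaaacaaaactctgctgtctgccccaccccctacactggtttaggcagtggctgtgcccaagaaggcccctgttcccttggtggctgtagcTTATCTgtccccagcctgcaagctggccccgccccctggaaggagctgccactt
These letters, searched on both strands, were found in 2 of the 14 list members with a RefSeq promoter (14.3%), against 10.2% of 27025 RefSeq promoters and 6.06% of the promoters of tested genes. A match is a description of the sequence and not a binding site.

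Heme synthesis fell along its whole length. Of 14 genes, 13 fell and 1 rose (median log2 fold change -2.67), and summed counts took 0.328%, 0.171% and 0.112% of AML libraries and 1.22%, 1.24% and 1.21% of controls. Fech, ferrochelatase, which inserts iron in the last step, had 328, 242 and 192 CPM in AML and 1343, 1069 and 1172 CPM in controls (log2 fold change -2.23 ± 0.25, adjusted p = 0.00131). Cpox, an oxidase of the pathway, had 299, 162 and 148 CPM in AML and 1555, 1369 and 1120.4 CPM in controls. The 2 forms of the entry enzyme moved in opposite directions. Alas2, the erythroid form, had 56.9, 15.1 and 2.19 CPM in AML and 591, 452 and 457 CPM in controls (log2 fold change -4.35 ± 1.01, adjusted p = 0.0137). Alas1, the form of other tissues, was the member that rose, with 53.3, 38.6 and 71.8 CPM in AML and 31.5, 20.04 and 17.1 CPM in controls (log2 fold change 1.25 ± 0.34, adjusted p = 0.0241, and 0.0922 and 0.0937 without control 2 and 3).

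Globins differed more between AML libraries than any other list. Of 6 tested genes, 2 fell. The summed counts of 7 globin genes took 0.169%, 0.0243% and 0.00317% of AML libraries and 0.679%, 0.841% and 0.982% of controls. The chaperone on this list was not among the gene symbols. Hbb-bs, an adult beta globin, had 852, 88.8 and 11.3 CPM in AML and 3895, 4930.0 and 6141 CPM in controls. All AML values lay below all controls, but the spread among AML libraries left the test just past the threshold (log2 fold change -3.97 ± 1.32, adjusted p = 0.0503). It was called without AML library 1 (adjusted p = 0.00725) or 3 (0.0261), by DESeq2 (0.00296) and limma-voom (0.00762), with the stricter filter (0.0376), without the robust option (0.0486), with a replicate block (0.0461) and in the model of all 12 libraries (0.0142). Hba-a1, an alpha globin, had 344, 102 and 17.9 CPM in AML and 2164, 2361 and 2476 CPM in controls (log2 fold change -3.92 ± 0.93, adjusted p = 0.0149, and 0.0601 without AML library 2). Hba-a2 is a near-identical copy of Hba-a1, so the split of reads between the pair is uncertain. The number of globin calls was 6 without AML library 1, 0 without AML library 2 or control 3, and 1 without control 1 or 2.

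All 16 tested genes of the red cell membrane fell (median log2 fold change -3.46), between 11 and 16 of them with each library left out. Their share of counts was 0.254%, 0.145% and 0.0772% in AML and 1.20%, 1.30% and 0.971% in controls. Gypc, glycophorin C, was the most even, with 165, 144 and 152 CPM in AML and 617, 548 and 572 CPM in controls (log2 fold change -1.92 ± 0.17, adjusted p = 0.000866). Add2, the beta adducin of the membrane skeleton, had 27.5, 10.3 and 7.69 CPM in AML and 325, 370.1 and 200.04 CPM in controls (log2 fold change -4.31 ± 0.55, adjusted p = 0.00178). Among 14 genes of maturation and organelle clearance, 9 fell and none rose (5 without control 1 or control 2). Isca1, an iron-sulphur assembly protein, had 69.9, 55.1 and 73.5 CPM in AML and 251, 238 and 219 CPM in controls, Fbxo7, a ubiquitin ligase subunit, had 77.4, 44.2 and 39.3 CPM against 273, 243 and 232 CPM, and Ube2l6, a conjugating enzyme, had 140.4, 93.5 and 101 CPM against 471, 398 and 533 CPM. Hemgn, a nuclear protein of blood precursors, had 69.4, 8.599 and 5.46 CPM in AML and 772, 633 and 569.5 CPM in controls (log2 fold change -4.57 ± 0.98, adjusted p = 0.0104). Of 13 iron handling genes, 5 fell and 1 rose. Tfrc, the transferrin receptor that loads precursors with iron, had 219.8, 92.8 and 130.1 CPM in AML and 1781, 1651 and 1277 CPM in controls (log2 fold change -3.41 ± 0.36, adjusted p = 0.00116). Hfe, a partner of that receptor, was the member that rose, with 41.7, 63.8 and 44.5 CPM in AML and 15.6, 10.8 and 14.8 CPM in controls (log2 fold change 1.87 ± 0.29, adjusted p = 0.00315).

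**Figure D3:**
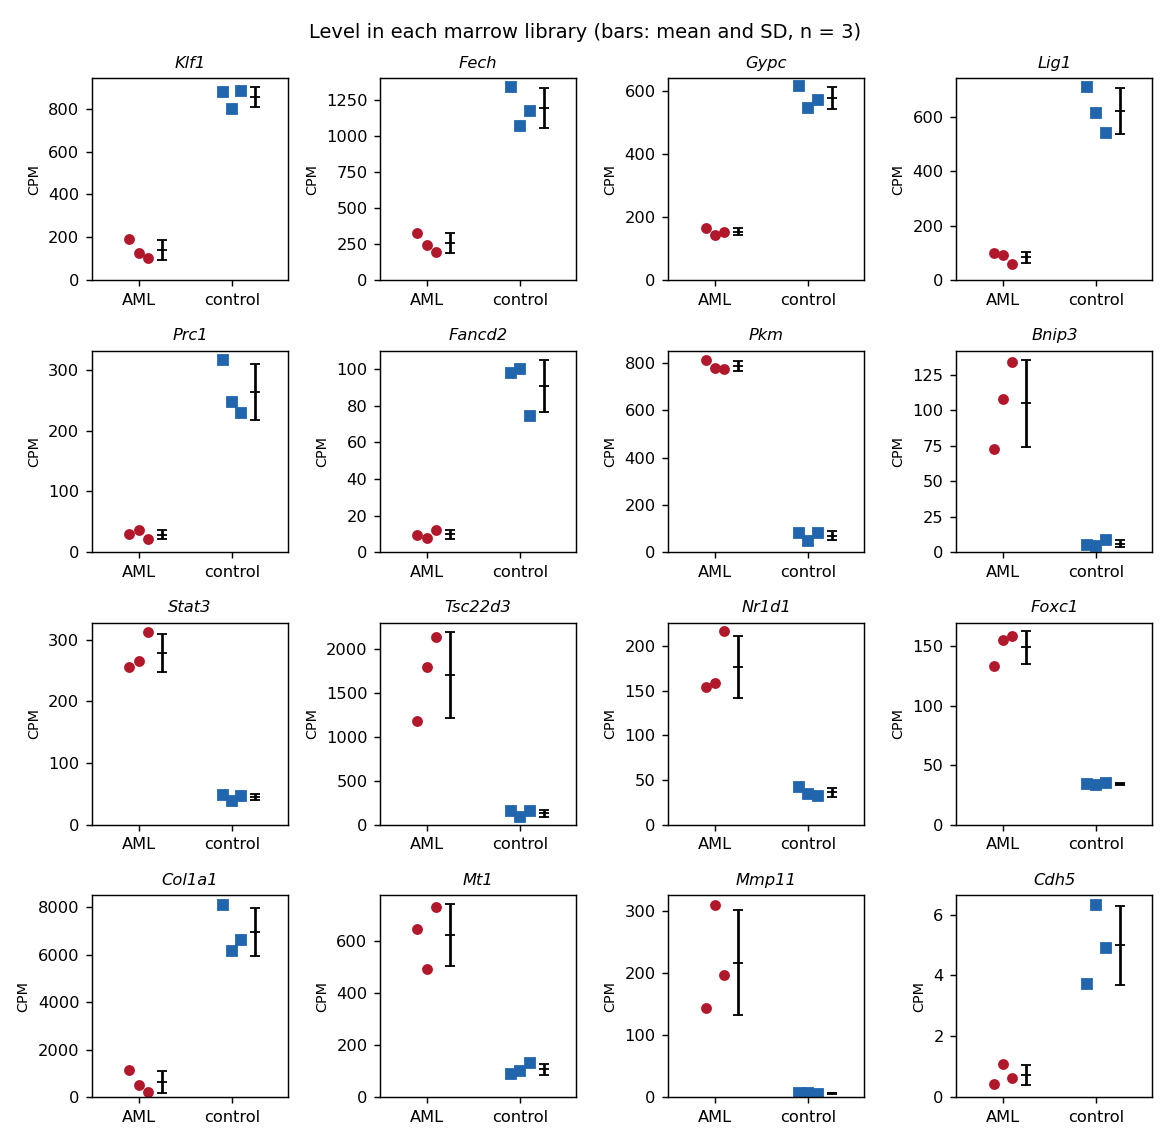
Level of 16 genes in each marrow library (CPM, linear axes from 0), AML as red circles and controls as blue squares, with the mean and SD (n = 3) beside each group. The genes were chosen from those named in the text with their values known, which favours panels without overlap. In all 16 panels the AML and control points do not overlap, as held for 53.8% of all tested genes. Examples are Pkm at 776 to 814 CPM in AML and 47.8 to 82.5 CPM in controls, and Col1a1 at 217 to 1128 CPM in AML and 6175 to 8106 CPM in controls.

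Genes of cell division fell without exception. All 24 DNA replication genes fell (median log2 fold change -2.52) and took 0.478%, 0.300% and 0.199% of the counts in AML and 1.72%, 1.65% and 1.59% in controls. Lig1, the ligase that joins replicated fragments, had 98.1, 90.0 and 59.5 CPM in AML and 710.3, 616 and 540.3 CPM in controls (log2 fold change -2.91 ± 0.26, adjusted p = 0.000848). Mcm7, a subunit of the replicative helicase, had 264, 171 and 173 CPM in AML and 1403, 1368 and 1138 CPM in controls, and Pola1, the catalytic polymerase alpha, had 39.9, 27.1 and 27.2 CPM against 174, 156 and 121 CPM. All 24 mitosis genes fell too (median log2 fold change -2.32), with shares of 0.213%, 0.184% and 0.119% in AML and 0.802%, 0.731% and 0.758% in controls. Prc1, which bundles microtubules of the dividing spindle, had 29.5, 35.9 and 21.8 CPM in AML and 317, 247 and 229 CPM in controls (log2 fold change -3.18 ± 0.26, adjusted p = 0.000735). Aurka, a spindle kinase, had 61.0, 73.7 and 71.2 CPM in AML and 346, 271 and 310.0 CPM in controls, and Nuf2, a kinetochore protein, had 40.3, 47.5 and 29.3 CPM against 228, 199 and 241 CPM. With each library left out, 23 or 24 replication genes and 22 to 24 mitosis genes were called. The erythroid shares given above moved in the same direction in the same libraries, and their part in the fall of division genes was not tested.

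The promoter of Prc1 is shown because genes of mitosis are known to share CCAAT boxes, bound by NF-Y, and because the members moved together. The box is in capitals within the 250 bases before the start (RefSeq, GRCm38.p6, chr7:80294201-80294450, plus strand).
Prc1: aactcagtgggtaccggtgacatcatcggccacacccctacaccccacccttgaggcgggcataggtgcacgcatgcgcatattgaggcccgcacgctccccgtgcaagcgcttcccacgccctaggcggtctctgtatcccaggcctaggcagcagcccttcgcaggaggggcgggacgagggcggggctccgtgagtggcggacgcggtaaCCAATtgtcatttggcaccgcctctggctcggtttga
On either strand it was present in 16 of the 20 mitosis genes with a RefSeq promoter, against 34.5% of 27025 RefSeq promoters and 36.7% of promoters of tested genes. The letters TTTGAA, known from a cell cycle element, were present in 5 of the 20, against 16.3% of RefSeq promoters and 10.95% of promoters of tested genes. Promoters were found for 79.2% of the replication genes, under the 80% of members required here for such a count.

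Among 15 tested genes of recombination repair and the Fanconi pathway, 13 fell and none rose (median log2 fold change -2.599). Fancd2, the central protein of the Fanconi pathway, had 9.48, 7.64 and 12.2 CPM in AML and 97.8, 100.1 and 74.5 CPM in controls (log2 fold change -3.21 ± 0.27, adjusted p = 0.000751). Rad51ap1, which assists strand exchange, had 65.1, 55.1 and 57.8 CPM in AML and 229, 235 and 253 CPM in controls (log2 fold change -2.01 ± 0.17, adjusted p = 0.000751). Both were even within each group. Cyclins and their inhibitors split, with 6 of 14 lower and 4 higher. Ccnd3, the D-type cyclin of blood precursors, had 257, 168 and 147 CPM in AML and 1562, 1445 and 1189 CPM in controls, and Cdk2, the kinase of the S phase, had 76.1, 62.8 and 59.8 CPM against 276, 248 and 223 CPM. Cdkn1a, the inhibitor p21, was higher, with 236, 306 and 398 CPM in AML and 54.2, 38.7 and 64.7 CPM in controls (log2 fold change 2.58 ± 0.28, adjusted p = 0.00119). Named after their values were seen, the other rising members were Cdkn2b, Cdkn1c and Ccnd2, a D-type cyclin with 138, 129 and 204 CPM in AML and 32.1, 13.6 and 20.7 CPM in controls.

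Trp53, the gene altered in the transplanted cells, had 184, 144 and 146 CPM in AML and 195, 205 and 155 CPM in controls, with overlapping groups (log2 fold change -0.23 ± 0.20, adjusted p = 0.406). Gene counts do not show the alleles, so this level is no check of the genotype. Of 20 genes of p53 and its targets, 4 rose and 1 fell, and the share that rose was near the 19.4% of all tested genes. Perp, a membrane protein of epithelial junctions and cell death, had 97.9, 63.6 and 160.0 CPM in AML and 4.30, 1.56 and 3.53 CPM in controls (log2 fold change 5.10 ± 0.52, adjusted p = 0.00106). Phlda3, an inhibitor of Akt signalling, had 123, 90.7 and 189 CPM in AML and 23.7, 17.4 and 21.2 CPM in controls (log2 fold change 2.69 ± 0.31, adjusted p = 0.00134). The other members that rose were Cdkn1a and Fas, the death receptor.

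Genes of protein synthesis and turnover had small median changes. The shares over all tested genes were 19.4% higher and 16.9% lower. Ribosome biogenesis genes were near those shares, while aminoacyl-tRNA synthetases and proteasome genes fell more often. Of 19 ribosome biogenesis genes, 4 rose and 2 fell (median log2 fold change 0.07), led by Rrp9, a small nucleolar RNP protein, with 114, 109 and 110.2 CPM in AML and 40.7, 35.6 and 33.1 CPM in controls (log2 fold change 1.61 ± 0.18, adjusted p = 0.00117). The number that rose was 2 without AML library 2, control 1 or control 3 and 1 without control 2. Among 19 aminoacyl-tRNA synthetases, 8 fell and 1 rose (median log2 fold change -0.42), with 6 to 8 falling when any single library was left out. Farsb had 95.0, 98.3 and 105 CPM in AML and 216, 199 and 197 CPM in controls, and Hars had 169, 144 and 118 CPM against 431, 367 and 324 CPM (log2 fold changes -1.04 ± 0.16 and -1.38 ± 0.21). Of 25 proteasome genes, 9 fell and none rose (median log2 fold change -0.44), with 4 or 5 called without AML library 2 or any single control, and 4 with libraries scaled by their totals alone. Psmb7, a catalytic subunit, had 76.7, 70.6 and 72.8 CPM in AML and 158, 165 and 143 CPM in controls (log2 fold change -1.08 ± 0.16, adjusted p = 0.00287).

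Genes of sugar breakdown and of the response to low oxygen were mostly higher. Of 20 genes of glycolysis and glucose uptake, 14 rose and 2 fell (median log2 fold change 1.66), 12 to 15 of them rising with each library left out. Pkm, the pyruvate kinase of muscle type and of dividing cells (chr9:59656368-59679375, GRCm38), had 814, 778 and 776 CPM in AML and 82.5, 47.8 and 80.9 CPM in controls (log2 fold change 3.49 ± 0.27, adjusted p = 0.000735). Pgam1, phosphoglycerate mutase, had 46.8, 44.0 and 46.2 CPM in AML and 6.60, 6.34 and 6.37 CPM in controls (log2 fold change 2.83 ± 0.24, adjusted p = 0.000751). Aldoa, an aldolase, had 910.3, 917 and 1182 CPM in AML and 200.3, 165 and 159.9 CPM in controls (log2 fold change 2.52 ± 0.21, adjusted p = 0.000751). For all 3 enzymes the AML libraries lay close together and far above every control. Gapdh, the dehydrogenase in the middle of the pathway and chosen after its values were seen, had 403, 354 and 379.9 CPM in AML and 307, 366 and 234 CPM in controls and was not called (adjusted p = 0.270). The members that fell were Hk1 and Pfkm, a hexokinase and a phosphofructokinase, while their counterparts Hk2, Pfkl and Pfkp rose. Hk1 had 179.6, 147 and 125 CPM in AML and 314, 315 and 233 CPM in controls (log2 fold change -0.93, adjusted p = 0.0137), and its call was lost without AML library 2, control 1 or control 2 (adjusted p = 0.0572, 0.0529 and 0.0535).

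Of 19 tested hypoxia response genes, 12 rose and 2 fell (median log2 fold change 1.73), and 7 rose without control 2. Adm, the vessel-dilating peptide adrenomedullin, had 179, 382 and 167 CPM in AML and 7.67, 6.34 and 8.14 CPM in controls (log2 fold change 5.04 ± 0.40, adjusted p = 0.000735). Bnip3, a mitochondrial protein of mitophagy, had 73.0, 108 and 134 CPM in AML and 5.08, 4.49 and 8.58 CPM in controls (log2 fold change 4.12 ± 0.37, adjusted p = 0.000882). Anln, a scaffold of the cleavage furrow that belongs to cell division as well, was the largest fall, with 20.8, 33.7 and 31.2 CPM in AML and 186, 159 and 135 CPM in controls. The genes for both oxygen-regulated transcription factors, Hif1a and Epas1, were among the members that rose.

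The promoters of Pgam1 and Bnip3 are shown because the hypoxia factors bind the core ACGTG, on either strand, in capitals. In Bnip3 a core on each strand overlaps the other, which makes the run in capitals 1 base longer (RefSeq, GRCm38.p6, 250 bases before the start, Pgam1 chr19:41911621-41911870 plus strand, Bnip3 chr7:138909507-138909756 minus strand).
Pgam1: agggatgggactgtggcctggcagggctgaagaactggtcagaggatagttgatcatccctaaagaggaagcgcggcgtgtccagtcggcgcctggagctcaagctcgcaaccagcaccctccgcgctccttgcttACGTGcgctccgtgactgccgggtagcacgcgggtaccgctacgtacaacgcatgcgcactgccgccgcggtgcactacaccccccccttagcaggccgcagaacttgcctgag
Bnip3: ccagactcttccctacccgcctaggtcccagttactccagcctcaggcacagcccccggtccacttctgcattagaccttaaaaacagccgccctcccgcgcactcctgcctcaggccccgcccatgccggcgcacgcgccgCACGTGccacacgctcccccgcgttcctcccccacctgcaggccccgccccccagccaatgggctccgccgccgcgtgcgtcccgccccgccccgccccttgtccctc
The core was present in 10 of 18 hypoxia genes and 8 of 19 glycolysis genes with a RefSeq promoter, against 16.6% of 27025 RefSeq promoters and 21.6% of promoters of tested genes. It was also present in 7 of 20 mitosis genes, a list that fell.

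The enzymes that follow glycolysis in the mitochondrion did not share the rise. Of 22 genes of pyruvate entry and the citric acid cycle, 5 fell and none rose (median log2 fold change -0.30). Of all tested genes, 16.9% fell and 19.4% rose. The number of the list that fell was 3 without AML library 2, control 1 or control 2 and 8 without AML library 3. Dlst, a subunit of 2-oxoglutarate dehydrogenase, had 155, 107 and 119.8 CPM in AML and 387, 388 and 311 CPM in controls, and Pdhb, of pyruvate dehydrogenase, had 157, 143 and 132 CPM against 295, 293 and 342 CPM (log2 fold changes -1.51 ± 0.21 and -1.11 ± 0.17). In the pentose phosphate pathway and NADPH supply, 4 of 9 genes fell and 3 rose. Tkt, transketolase, had 284, 190.3 and 163 CPM in AML and 571, 566 and 436 CPM in controls, while Me1, the malic enzyme, had 30.5, 30.0 and 21.1 CPM in AML and 8.55, 6.48 and 7.06 CPM in controls (log2 fold changes -1.30 ± 0.26 and 1.88 ± 0.31). Of 21 lysosome genes, 9 rose and 2 fell (median log2 fold change 0.86). The lysosomal proteases Ctsz, with 293, 339 and 272 CPM in AML and 125, 123 and 121 CPM in controls, and Ctsl, with 459, 566 and 690.2 CPM against 168, 136 and 221 CPM, were higher, and Atp6v0d1, a proton pump subunit, was lower (49.4, 34.8 and 45.7 CPM against 119, 105 and 113 CPM). Of 16 autophagy genes, 3 rose and 3 fell, close to the shares of all tested genes, with 5 rising and 1 falling without AML library 1 and 1 falling without AML library 2 or any single control.

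Genes of the glucocorticoid response and of the circadian clock were higher. Of 12 glucocorticoid genes, 9 rose and none fell (median log2 fold change 2.76). Tsc22d3, the glucocorticoid-induced leucine zipper, had 1172, 1793 and 2131 CPM in AML and 152, 85.3 and 156 CPM in controls (log2 fold change 3.70 ± 0.36, adjusted p = 0.000923). Klf9 had 259, 319.9 and 423 CPM in AML and 70.3, 43.3 and 46.5 CPM in controls, and Cebpd had 422, 572 and 781 CPM against 74.0, 64.3 and 105 CPM (log2 fold changes 2.64 ± 0.28 and 2.87 ± 0.31). All 3 genes were highest in AML library 3. The receptor gene Nr3c1, chosen after its values were seen, had a log2 fold change of -0.06 and was not called (adjusted p = 0.886), with a sign that changed between settings. Of 17 clock genes, 13 rose and none fell (median log2 fold change 1.96), and 7 rose without control 2 or control 3. The risers lay in both arms of the clock, so genes that peak at opposite times of day in most tissues were higher together. Nr1d1, the repressor REV-ERB alpha, had 154, 159 and 216 CPM in AML and 41.8, 33.7 and 32.2 CPM in controls (log2 fold change 2.30 ± 0.22, adjusted p = 0.000916). Nfil3, a repressor of the output genes, had 39.9, 45.9 and 51.2 CPM in AML and 5.52, 6.14 and 9.14 CPM in controls, and Tef, an activator at the same sites, had 84.9, 146 and 150.1 CPM against 27.5, 22.3 and 19.8 CPM (log2 fold changes 2.72 ± 0.30 and 2.45 ± 0.28). The labels give no time of collection.

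Of 22 AP-1 and early response genes, 17 rose and none fell (median log2 fold change 2.04). Egr1, an early zinc finger factor, had 2879, 3677 and 4364 CPM in AML and 528, 337 and 544 CPM in controls (log2 fold change 2.95 ± 0.29, adjusted p = 0.000983). Fosb, an AP-1 subunit, had 165, 199.7 and 236 CPM in AML and 46.4, 43.0 and 56.3 CPM in controls, and Ier3 had 206, 239 and 305 CPM against 54.3, 57.4 and 71.3 CPM (log2 fold changes 2.04 ± 0.21 and 2.04 ± 0.22). These genes are known to respond within minutes to growth factors and to tissue dissociation, a step the labels do not describe. The AP-1 letters TGANTCA, on either strand, were in none of the 18 members with a RefSeq promoter. They were in 6.87% of RefSeq promoters and 4.19% of promoters of tested genes. Metallothioneins, which bind zinc, rose: Mt1 had 645, 493 and 728 CPM in AML and 87.9, 101 and 129 CPM in controls, and Mt2 had 104, 71.5 and 110.5 CPM against 12.9, 14.8 and 15.1 CPM (log2 fold changes 2.55 ± 0.24 and 2.74 ± 0.25). Slc39a14, a zinc and iron importer, had 56.2, 149 and 67.4 CPM in AML and 18.3, 11.3 and 10.8 CPM in controls. In all, 5 of 7 metallothionein and zinc genes rose and 1 fell.

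Other stress lists showed no common direction. Of all tested genes, 19.4% rose and 16.9% fell. Of 16 genes of the integrated stress response, 4 rose and 2 fell, near those shares. The number that fell was 1 without AML library 2, control 1 or control 3. Cebpb, a transcription factor of inflammation, had 358, 482 and 686 CPM in AML and 73.0, 56.1 and 93.3 CPM in controls, while Mthfd2, of mitochondrial folate metabolism, had 35.0, 15.54 and 19.8 CPM against 82.8, 96.2 and 101 CPM (log2 fold changes 2.78 ± 0.31 and -1.99 ± 0.33). Of 14 heat shock genes, 4 rose and 3 fell, with 2 higher without AML library 1, AML library 3 or any single control, and no lower call without AML library 1 or control 2. Hspb1, a small heat shock protein of muscle-type cells, had 123, 92.4 and 277 CPM in AML and 10.7, 13.0 and 21.6 CPM in controls (log2 fold change 3.45 ± 0.49, adjusted p = 0.00252). Of 13 antioxidant genes controlled by NRF2, 3 rose and 2 fell, near the shares of all tested genes, and 1 rose without control 2 or control 3. Gclc, which makes glutathione's precursor, had 92.2, 83.8 and 64.5 CPM in AML and 480.5, 398 and 369 CPM in controls, while Hmox1, the heme oxygenase, had 39.9, 52.7 and 21.7 CPM against 5.62, 11.6 and 6.94 CPM (log2 fold changes -2.37 ± 0.22 and 2.24 ± 0.44).

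**Figure D4:**
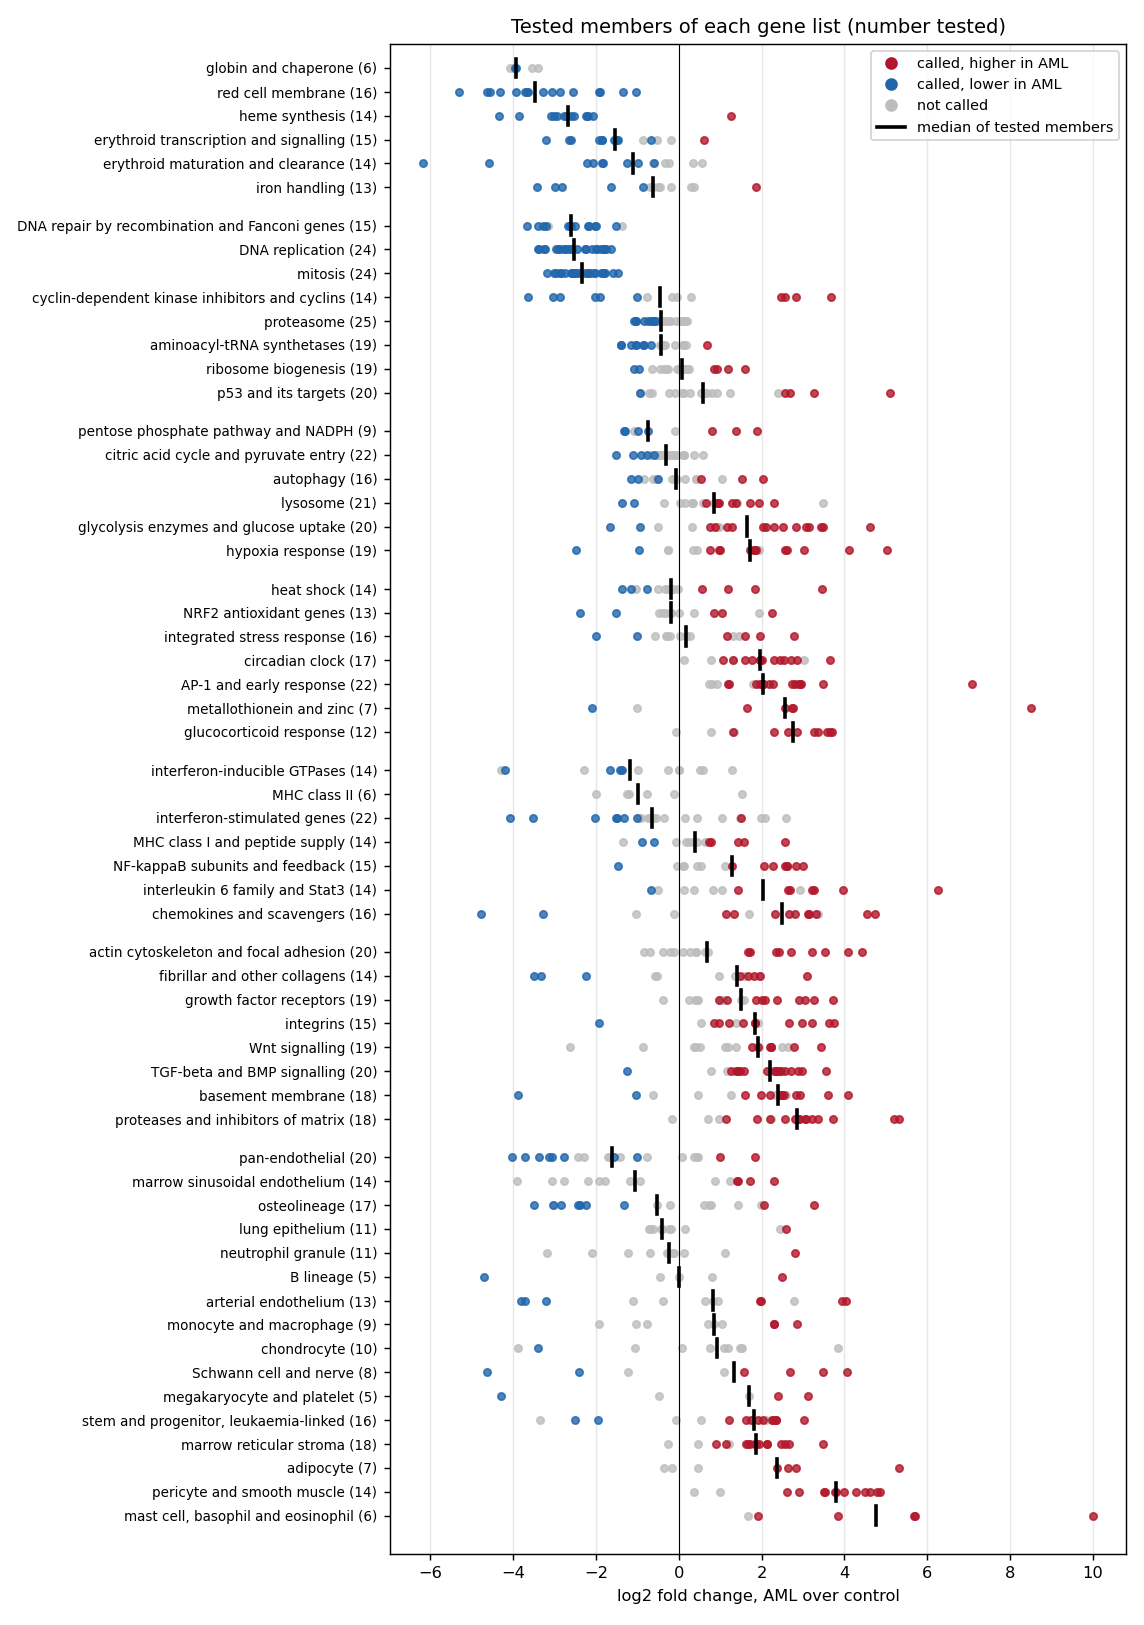
Log2 fold change of AML over control (x) for every tested member of each gene list (rows, number tested in brackets), called higher in red, called lower in blue, not called in grey, with the list's median as a black bar. All replication and mitosis members lie below 0, most members of the glucocorticoid, clock, AP-1, protease and TGF-beta lists lie above it, and endothelial lists spread to both sides.

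Genes of inflammatory signalling were mostly higher and interferon-stimulated genes mostly lower or not called. Of 14 tested genes of the interleukin 6 family and Stat3, 7 rose and 1 fell (median log2 fold change 2.04). Il6, the cytokine (chosen after its values were seen), had 20.1, 36.8 and 38.2 CPM in AML and 0.879, 0.244 and 0.0631 CPM in controls (log2 fold change 6.26 ± 0.81, adjusted p = 0.00190). Osmr, a receptor of the family, had 66.4, 117 and 87.7 CPM in AML and 11.5, 9.55 and 7.0001 CPM in controls (log2 fold change 3.27 ± 0.32, adjusted p = 0.000923). Stat3, the transcription factor the receptors act through, had 256, 265 and 313 CPM in AML and 47.8, 39.0 and 46.0 CPM in controls (log2 fold change 2.65 ± 0.19, adjusted p = 0.000735). Socs3, the feedback inhibitor of the pathway, had 965, 1331 and 958 CPM in AML and 157, 132 and 216 CPM in controls (log2 fold change 2.69 ± 0.27, adjusted p = 0.000995). Il6ra, the receptor of interleukin 6 itself, was not called (log2 fold change 2.94, adjusted p = 0.141). The member that fell, Jak2, is also the kinase of the erythropoietin receptor, with 85.0, 64.6 and 82.5 CPM in AML and 142, 128 and 95.7 CPM in controls (adjusted p = 0.0480). That call was lost without AML library 1 or 2 and without control 1 or 2 (adjusted p = 0.0638, 0.151, 0.158 and 0.115), and with libraries scaled by their totals alone (0.115).

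Of 15 tested genes of NF-kappaB and its feedback, 8 rose and 1 fell (median log2 fold change 1.29). Tnfaip3, the inhibitor A20, had 1192, 1622 and 1689.5 CPM in AML and 182, 225 and 152 CPM in controls (log2 fold change 3.01 ± 0.25, adjusted p = 0.000754). Nfkbie, an inhibitor of the complex, had 38.9, 35.4 and 35.5 CPM in AML and 4.35, 4.53 and 6.56 CPM in controls, and Birc3 had 50.6, 54.2 and 29.5 CPM against 8.31, 6.04 and 8.14 CPM. Of 16 tested chemokines and chemokine scavengers, 10 rose and 2 fell (median log2 fold change 2.499). Cx3cl1, which attracts monocytes, had 157, 142 and 64.9 CPM in AML and 17.3, 20.04 and 19.93 CPM in controls, Cxcl16 had 15.05, 19.99 and 31.7 CPM against 2.69, 1.80 and 3.09 CPM, and Cxcl1, which attracts neutrophils, had 33.4, 30.3 and 53.8 CPM against 8.45, 3.41 and 4.79 CPM. The 2 members that fell were the scavengers Ackr1 and Ackr2, calls that were both lost without AML library 2, control 1 or control 2 (adjusted p = 0.0761, 0.0587 and 0.0553 for Ackr1, and 0.0504, 0.0702 and 0.0825 for Ackr2). Ackr1, which presents chemokines on venules and red cells, had 28.1, 5.98 and 1.99 CPM in AML and 113, 91.3 and 139 CPM in controls.

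Of 22 tested interferon-stimulated genes, 7 fell and 1 rose (median log2 fold change -0.66), with 3, 4 and 4 falling without control 1, 2 and 3. Rsad2, an antiviral enzyme, had 2.68, 2.97 and 6.30 CPM in AML and 61.5, 35.6 and 39.5 CPM in controls (log2 fold change -3.51 ± 0.45, adjusted p = 0.00181). Isg15, a ubiquitin-like modifier, had 14.1, 12.003 and 16.3 CPM in AML and 44.6, 28.6 and 45.7 CPM in controls, and Irf7, the regulator of the response, had 29.3, 16.8 and 36.2 CPM against 87.2, 65.2 and 81.8 CPM. Among 14 interferon-inducible GTPases, 4 fell and none rose (2 without control 1 or control 3), Gbp7 with 24.0, 36.9 and 20.1 CPM in AML and 107, 74.6 and 72.5 CPM in controls. The median of that list was -1.17, and 0.07 when only genes with at least 5 CPM in 3 libraries were kept. Peptide supply for MHC class I was split: Psmb8, an immunoproteasome subunit, had 88.5, 122 and 93.3 CPM in AML and 17.4, 13.1 and 20.4 CPM in controls (log2 fold change 2.58 ± 0.26, adjusted p = 0.000983), and 5 of 14 genes of the list rose and 2 fell. The number that rose was 3 without AML library 1 and 2 without AML library 2 or any single control, and the number that fell was 0 or 1 without any single library. None of 6 tested MHC class II genes was called by the edgeR test of the marrow libraries. Of these, H2-DMb1 was called higher by DESeq2 (adjusted p = 0.0296), in the model of all 12 libraries (0.00494) and without AML library 1 (0.0441).

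Matrix and its remodelling changed in most members, and the main bone collagen went the other way. Of 18 tested proteases and inhibitors of matrix, 14 rose and none fell (median log2 fold change 2.86). Mmp11, a stromal metalloprotease, had 143, 310.4 and 197 CPM in AML and 6.21, 6.24 and 5.23 CPM in controls (log2 fold change 5.20 ± 0.35, adjusted p = 0.000735). Adamts1, a protease of proteoglycans, had 717, 707 and 1012 CPM in AML and 82.7, 74.7 and 80.8 CPM in controls (log2 fold change 3.35 ± 0.23, adjusted p = 0.000735). Among the 18 genes of the basement membrane, 11 rose and 2 fell (median log2 fold change 2.39). Lama5, a laminin chain, had 84.4, 53.03 and 81.3 CPM in AML and 5.13, 3.41 and 4.41 CPM in controls, and Col4a1, of collagen IV, had 368, 364 and 382 CPM against 82.3, 78.3 and 36.6 CPM (log2 fold changes 4.08 ± 0.31 and 2.496 ± 0.32). Among 14 other collagens, 5 rose and 3 fell (3 rose without control 3). Col1a1, the main collagen of bone (not analysed by isoform), had 1128, 502 and 217 CPM in AML and 8106, 6175 and 6643 CPM in controls (log2 fold change -3.50 ± 0.58, adjusted p = 0.00417). Col11a1 had 39.2, 16.8 and 19.4 CPM in AML and 322, 135 and 299 CPM in controls, while Col6a2, of microfibrils, had 203, 345 and 211 CPM against 102, 82.3 and 55.9 CPM.

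Of 15 tested integrins, 11 rose and 1 fell (6 rose without control 2 or control 3). Itgb5 had 388, 439.8 and 486 CPM in AML and 41.8, 19.5 and 36.6 CPM in controls, and Itga1, a collagen receptor, had 119, 129 and 108 CPM against 16.2, 23.3 and 17.0 CPM (log2 fold changes 3.75 ± 0.32 and 2.65 ± 0.23). Itga4, the member that fell, is an integrin by which blood precursors hold on to stroma, and its call was lost without AML library 2, control 1 or control 2 (adjusted p = 0.0501, 0.0562 and 0.0620). Of 20 genes of TGF-beta and BMP signalling, 17 rose and 1 fell (median log2 fold change 2.21). Ccn2, a matricellular target, had 771, 752 and 1579 CPM in AML and 108, 78.3 and 75.9 CPM in controls (log2 fold change 3.57 ± 0.37, adjusted p = 0.00107). Id2, a target of BMP signals, had 137, 164 and 191 CPM in AML and 31.7, 21.5 and 37.7 CPM in controls, and Bmpr2, a receptor, had 21.6, 28.2 and 29.4 CPM against 4.20, 4.14 and 3.72 CPM. The member that fell was the ligand gene Tgfb1. Of 19 tested Wnt genes, 7 rose and none fell (4 without control 2 or control 3), among them the ligand Wnt4 with 79.1, 114 and 58.2 CPM in AML and 10.9, 8.53 and 16.9 CPM in controls and the receptor Fzd4 with 45.5, 38.8 and 49.0 CPM against 12.8, 10.4 and 11.9 CPM. Of 20 genes of the actin skeleton and focal adhesions, 9 rose and none fell, including Vim, vimentin, with 426, 616 and 1148 CPM in AML and 111, 44.8 and 80.6 CPM in controls, and Zyx, zyxin, with 127, 119.6 and 294 CPM against 24.2, 9.65 and 12.9 CPM. Of 19 tested growth factor receptors, 10 rose and none fell, among them Pdgfrb and Egfr, Egfr at 36.2, 41.2 and 41.9 CPM in AML and 10.9, 7.65 and 4.35 CPM in controls. The pericyte and stromal lists described next moved in the same direction in the same libraries, and their part in these rises was not tested.

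Markers of cells around vessels rose. Of 14 pericyte and smooth muscle genes, all detected in both groups, 12 rose and none fell (median log2 fold change 3.79), and the list took 0.525%, 0.336% and 1.16% of AML libraries and 0.0715%, 0.0209% and 0.0346% of controls (exact permutation p = 0.1, the smallest possible). Pdgfrb, the receptor that defines mural and stromal cells, had 437, 577 and 350.4 CPM in AML and 81.0, 66.0 and 35.2 CPM in controls (log2 fold change 2.90 ± 0.36, adjusted p = 0.00164). Notch3, a receptor of mural cells, had 177, 135 and 242 CPM in AML and 28.1, 9.75 and 10.5 CPM in controls, and Mcam, the adhesion molecule CD146, had 162, 77.0 and 271 CPM against 17.4, 7.21 and 12.7 CPM (log2 fold changes 3.52 ± 0.48 and 3.77 ± 0.54). Of 18 marrow reticular stroma genes, 15 rose and none fell (median log2 fold change 1.86), with 0.929%, 1.30% and 0.773% of counts in AML and 0.343%, 0.282% and 0.241% in controls. Foxc1, a transcription factor that maintains these cells, was the most even member, with 133, 155 and 159 CPM in AML and 34.0, 33.1 and 35.1 CPM in controls (log2 fold change 2.13 ± 0.17, adjusted p = 0.000735). Hp, haptoglobin, had 1273, 2048 and 1131 CPM in AML and 174, 103 and 120.1 CPM in controls, and Esm1, a secreted proteoglycan, had 370.0, 459 and 324 CPM against 82.4, 58.3 and 54.9 CPM. Cxcl12, the defining chemokine and the most abundant member, was chosen after its values were seen and had 3621, 4866 and 3029 CPM in AML and 2069, 1695 and 1466 CPM in controls (log2 fold change 1.14 ± 0.26, adjusted p = 0.0132, and 0.0654 and 0.0559 without control 2 and 3).

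Bone-forming cells were represented in both groups, and their list split. Of 17 tested osteolineage genes, 7 fell and 2 rose, with 2 or 3 falling without AML library 2, control 1 or control 3. Their summed share was 1.26%, 2.23% and 1.16% in AML and 1.96%, 1.31% and 2.03% in controls (exact permutation p = 0.8). The sum hid a change of its parts. Spp1, osteopontin, had 5377, 14687 and 7894 CPM in AML and 889, 623 and 1372 CPM in controls (log2 fold change 3.28 ± 0.48, adjusted p = 0.00271), while Col1a1 fell as above. Without Spp1, its most abundant member, the ratio of the mean AML share to the mean control share moved to 0.332 in place of 0.877. Postn, periostin, had 131, 198 and 307 CPM in AML and 72.2, 38.1 and 43.5 CPM in controls (log2 fold change 2.05 ± 0.38, adjusted p = 0.00600). Bglap, osteocalcin of mature osteoblasts, had 297, 46.0 and 35.0 CPM in AML and 903, 554 and 1635 CPM in controls (log2 fold change -3.04 ± 0.88, adjusted p = 0.0309, and 0.0909 without AML library 2, 0.0680, 0.0551 and 0.106 without control 1, 2 and 3). Of 10 tested chondrocyte genes only Col2a1, the collagen of cartilage, was called, with 58.9, 69.2 and 12.3 CPM in AML and 505, 262 and 707 CPM in controls (log2 fold change -3.39 ± 0.67, adjusted p = 0.00765).

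Endothelial lists spread in both directions. Over all tested genes, 19.4% rose and 16.9% fell. Of 20 pan-endothelial genes, 8 fell and 2 rose (median log2 fold change -1.61), with 5, 3 and 2 falling without control 1, 2 and 3. The number that rose was 0 or 1 without any single library. The summed share of this list, given above, overlapped between the groups, with Plvap the most abundant member, so the sum did not follow the median. Eng, a TGF-beta coreceptor of vessels, had 16.2, 20.1 and 13.4 CPM in AML and 47.4, 61.7 and 38.7 CPM in controls (log2 fold change -1.57 ± 0.28, adjusted p = 0.00559). Kdr, the main receptor of vascular endothelial growth factor, had 3.62, 1.83 and 0.478 CPM in AML and 17.5, 15.2 and 28.3 CPM in controls (log2 fold change -3.38 ± 0.73, adjusted p = 0.0108, and 0.0510 without control 3). Cldn5, a tight junction protein, had 1.30, 2.49 and 0.718 CPM in AML and 7.28, 17.2 and 13.2 CPM in controls (adjusted p = 0.0101, and 0.0525 without control 2). Both calls rested on low counts. Of 14 sinusoidal genes, 4 rose and none fell (2 fell without AML library 1 and 1 without AML library 3), and the median log2 fold change was -1.05, or 0.04 when only genes with at least 5 CPM in 3 libraries were kept. Summed counts of the sinusoidal list went the other way from this median. They took 0.135%, 0.190% and 0.166% of AML libraries and 0.0604%, 0.0493% and 0.0831% of controls (exact permutation p = 0.1), with Ctsl the most abundant member. Among the risers were Ctsl, Il6st and Vcam1, an adhesion molecule that stroma makes as well, which had 324, 470.3 and 318 CPM in AML and 159, 108 and 150.3 CPM in controls. The scavenger receptors that define sinusoids, Stab1 and Stab2, were not called (log2 fold changes -1.17 and -2.78), although Stab2 was called lower by DESeq2 (adjusted p = 0.0238) and in the model of all 12 libraries (0.0468). Of 13 tested arterial genes, 4 rose and 3 fell, with 1 falling without any single control. Gja4, a gap junction protein of arteries, had 116, 74.8 and 149 CPM in AML and 9.48, 4.05 and 8.70 CPM in controls, whereas Cxcr4, the CXCL12 receptor, had 2.89, 2.53 and 1.32 CPM against 19.1, 26.5 and 16.5 CPM (log2 fold changes 3.94 ± 0.42 and -3.21 ± 0.46). The median of the arterial list was 0.82, and -0.28 with limma-voom. Its summed counts took 0.0582%, 0.0953% and 0.0645% of AML libraries and 0.0217%, 0.0191% and 0.0176% of controls (exact permutation p = 0.1), with Fbln5 the most abundant member.

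Transcripts of blood cell lists other than the erythroid ones were scarce in both groups. Of 18 mast cell, basophil and eosinophil genes, only 6 had enough counts to be tested, and 5 of them rose (3 without control 1 or control 3). Without AML library 3 the filter, applied anew, let in more members, and 9 rose. The list took 0.0393%, 0.0386% and 0.0178% of AML libraries and 0.00405%, 0.00602% and 0.00189% of controls, with every AML library above every control (exact permutation p = 0.1). Defining genes were undetected, with 8 of the 18 at 0 counts in all AML libraries and 7 in all controls. Hdc, histidine decarboxylase, had 128, 78.0 and 66.4 CPM in AML and 1.51, 3.02 and 0.568 CPM in controls (log2 fold change 5.71 ± 0.62, adjusted p = 0.00116). Il4, a cytokine, had 30.5, 39.6 and 23.3 CPM in AML and 0.0489, 1.02 and 0.757 CPM in controls (log2 fold change 5.67 ± 0.83, adjusted p = 0.00278). Cpa3, a mast cell carboxypeptidase, had 10.996, 52.5 and 10.9 CPM in AML and a single count over all controls. Of 11 tested neutrophil granule genes, 1 rose and none fell, with shares of 0.00418%, 0.0130% and 0.0221% in AML and 0.0389%, 0.00334% and 0.00549% in controls, so control 1 and AML library 3 stood above the others of their groups. Of 9 tested monocyte and macrophage genes 3 rose (1 without any single control), of 5 B lineage genes 1 rose and 1 fell, and none of 3 T and NK cell genes was called. Of 5 tested megakaryocyte genes 2 rose and 1 fell, with 0 or 1 of each called without any single control. Itga2b, the platelet integrin, had 35.2, 24.5 and 12.2 CPM in AML and 2.54, 0.829 and 4.86 CPM in controls (adjusted p = 0.0125, and 0.0555 without control 1). Of 16 tested stem, progenitor and leukaemia-linked genes, 10 rose and 2 fell, with 6 rising without AML library 1 and 5, 4 and 5 without control 1, 2 and 3. Runx1, a regulator of blood formation, had 118, 129 and 99.8 CPM in AML and 43.2, 42.1 and 27.3 CPM in controls (log2 fold change 1.62 ± 0.24, adjusted p = 0.00283). Genes known from leukaemia stem cells were among the risers, named after their values were seen. Meis1, a homeobox cofactor, had 15.8, 15.3 and 10.9 CPM in AML and 2.59, 1.75 and 3.85 CPM in controls, and Hoxa10, a homeobox gene that reticular stroma can also express, had 41.9, 45.9 and 85.6 CPM against 12.9, 7.26 and 16.5 CPM (log2 fold changes 2.36 ± 0.48 and 2.25 ± 0.42). Ptprc, given above, was at 5.72 CPM or less in every AML library. The members that fell, Lmo2 and Mllt3, belong to red cell development as well, with 94.8, 34.4 and 30.3 CPM in AML against 327, 314 and 254 CPM in controls for Lmo2.

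Other tissues were checked in the same way. Lung epithelium genes took 0.0463%, 0.0377% and 0.191% of AML libraries and 0.0401%, 0.236% and 0.0662% of controls, with overlapping groups (exact permutation p = 0.6), and AML library 3 and control 2 were the high ones. Of 11 tested members only Hopx was called, a cofactor found outside the lung too, with 63.9, 46.4 and 60.4 CPM in AML and 7.82, 11.8 and 8.89 CPM in controls (log2 fold change 2.58 ± 0.28, adjusted p = 0.00116). Of 7 tested adipocyte genes 4 rose (2 without control 1 or control 2), Pparg, the regulator of fat cells, with 63.4, 87.6 and 94.6 CPM in AML and 11.04, 7.995 and 20.4 CPM in controls. Of 8 tested Schwann cell and nerve genes 4 rose and 2 fell, Pmp22, a myelin protein also made by fibroblasts, with 138, 188 and 227 CPM in AML and 50.4, 16.7 and 19.1 CPM in controls.

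**Figure D5:**
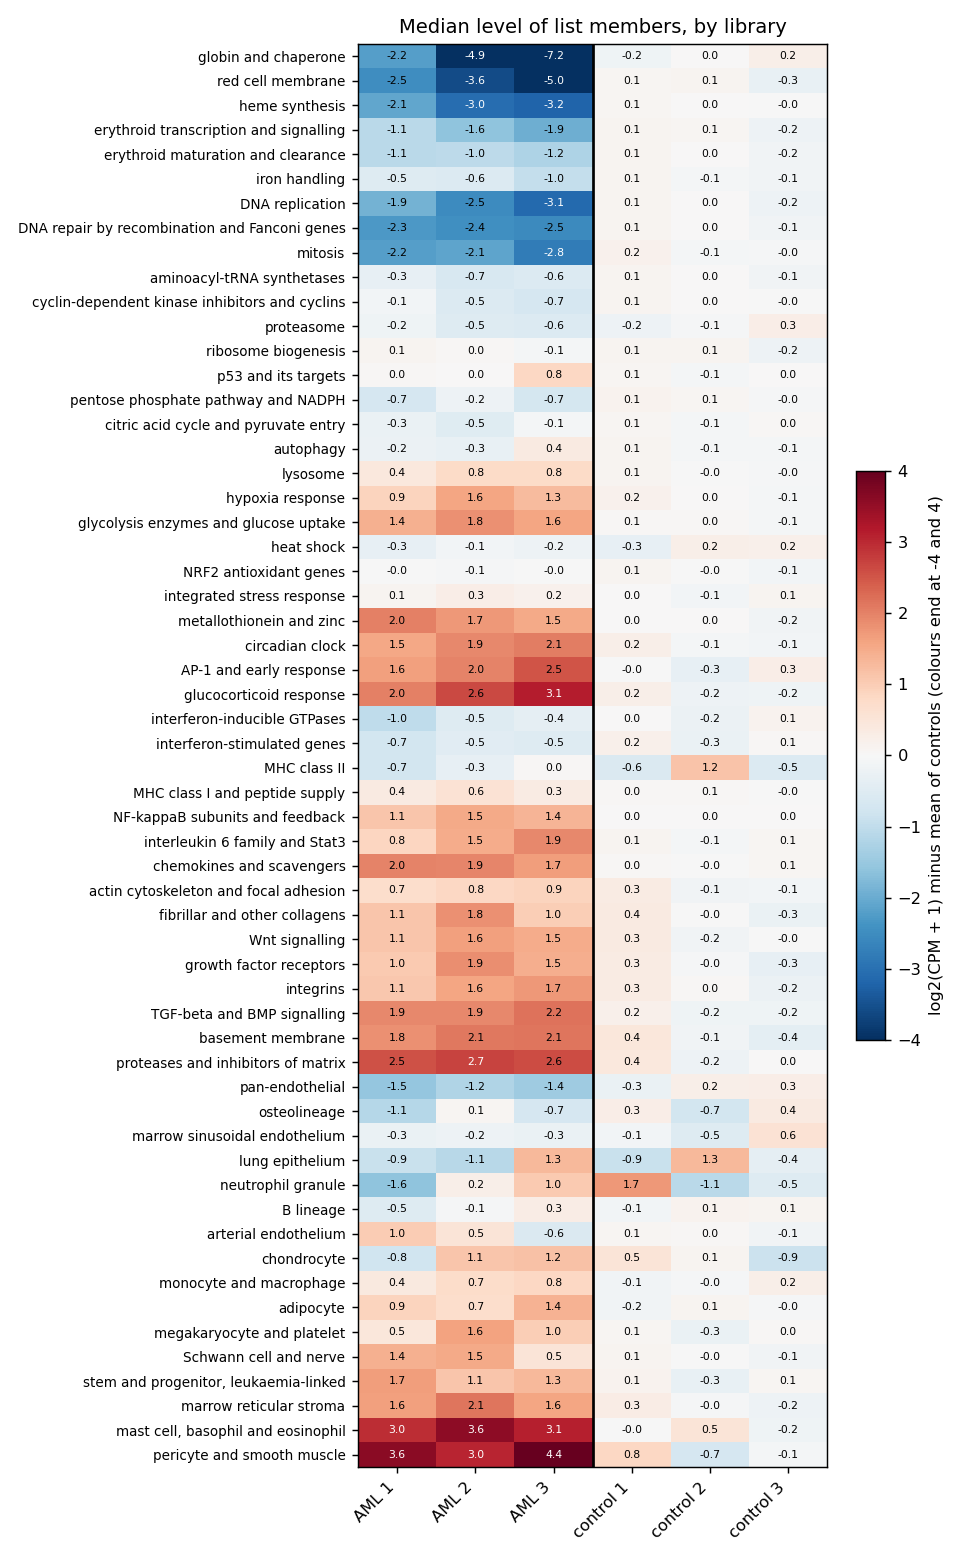
Median over the tested members of each gene list of log2(CPM + 1) minus the mean of the controls, by library, with AML libraries left of the line and controls right of it. Globin medians are -2.2, -4.9 and -7.2 in AML libraries 1, 2 and 3, whereas protease medians stay between 2.5 and 2.7.

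The AML libraries were not alike. Among 2684 genes with at least 100 CPM in the highest AML library, AML library 3 stood at least 4-fold above both others for 30 genes and below them for 9, against 7 and 8 for AML library 1 and 0 and 3 for AML library 2. AML library 1 kept more red cell transcripts. Hbb-bt, a beta globin, had 312 CPM there, 24.6 and 1.16 CPM in AML libraries 2 and 3, and 869, 1185 and 1512 CPM in controls. The 4 genes furthest below in AML library 1 belong to cartilage and bone, although Bglap and Col1a1, given above, were highest there. Cytl1, a secreted cartilage protein, had 0.0723, 157 and 263 CPM in AML and 33.03, 24.03 and 0 CPM in controls, and Chad, a cartilage matrix protein, had 23.4, 287 and 453 CPM against 278, 49.5 and 4.23 CPM. Mepe and Omd, of osteocytes and bone surface, had 2.39, 35.6 and 148 CPM and 14.4, 149 and 336 CPM in AML, against 3.91, 4.83 and 38.3 CPM and 56.5, 39.8 and 96.0 CPM in controls. None of these 4 genes was called between the groups, although Omd was without AML library 1 (adjusted p = 0.0244). AML library 2 was highest for Fam20c, a kinase of secreted bone proteins, with 40.4, 147 and 31.1 CPM in AML and 16.1, 10.1 and 18.9 CPM in controls, and lowest for Cnn1, a smooth muscle protein, with 93.5, 22.9 and 289 CPM against 13.2, 1.46 and 3.15 CPM. Both genes were called higher in AML (adjusted p = 0.0242 and 0.0184), the Fam20c call being lost without any single control and the Cnn1 call without control 2 or 3. AML library 3 held most of Chodl, a membrane lectin, with 0.217, 0.0873 and 213 CPM in AML and 1.07, 0.926 and 0.631 CPM in controls. Mpo, the myeloperoxidase of myeloid precursors, had 3.91, 0.0873 and 117 CPM in AML and 126, 5.02 and 15.7 CPM in controls, so AML library 3 and control 1 were high and the groups overlapped (adjusted p = 0.922). Cilp, a cartilage protein, and Inmt, a methyltransferase, had 1.59, 11.6 and 619.7 CPM and 1.66, 1.48 and 127 CPM in AML, against 161, 175 and 7.32 CPM and 7.96, 4.24 and 2.77 CPM in controls.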

How the data were processed

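RNA was extracted with a micro-scale column kit and amplified with SMART-seq v4 before ThruPLEX library preparation, per the labels. The authors deposited raw read counts per gene symbol, 1 table per library. The submitters' processing notes name bcl2fastq, STAR and the mm10 build, while their versions, the annotation and the counting program are not stated in the labels or notes. Per the file names the counts are unstranded, so reads of a gene and of one that overlaps it on the other strand are mixed.

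Counts of the 6 marrow libraries were filtered (minimum count 10, minimum total 15), scaled by TMM and tested with edgeR 4.0.16 (quasi-likelihood, robust, 4 residual degrees of freedom) in R 4.3.3. Genes with a Benjamini-Hochberg adjusted p under 0.05 were called, CPM are TMM-scaled, and errors of log2 fold changes are standard errors. Total counts of 12.8 to 24.8 M set the depth. The test was checked on simulated data with known changes and the same dispersion for all genes and both groups. The AML libraries here varied more than the controls, which that check does not cover. Alternatives used DESeq2 1.42.0, limma-voom (limma 3.58.1), other scalings and filters, a replicate block, all 12 libraries in 1 model, and each library left out. With a library left out the filter was applied anew, so the number of list members tested can differ from the main fit. Summed shares were compared with exact permutation tests. Positions are from GENCODE on GRCm38, and promoters from RefSeq.

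Genes were named by a rule: the 10 largest rises and falls among called genes with at least 200 CPM and no overlap, the 3 smallest p-values of each list with at least 5 tested members, 4 fixed genes, and the 4 genes furthest above and below in each AML library. Predicted genes, clones, pseudogenes, immune segments and ribosomal proteins were passed over, other genes, such as the exceptions within a list, were chosen after their values were seen, and some list members are not reported here. The members, lists and comparisons were chosen with earlier results of these data known.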

Additional observations from a re-analysis of the deposited data

Results flagged for a closer look

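For 17 of the 20 largest marrow changes, the AML effect in marrow differed from that in lung by a test of the difference itself (edgeR interaction in 1 model of all 12 libraries, adjusted p from 5.42e-05 to 0.0349), against 30.7% of 18147 genes tested in that model. The 20 genes were chosen for their marrow effect, which is part of the difference, so a large difference is favoured by the choice. The other 3, Trap1a, Aqp1 and Alas2, did not pass. In that model Trap1a rose in both tissues, by 7.77 in marrow and by 6.74 in lung (adjusted p = 0.0145 for the lung effect, edgeR). Differences are marrow minus lung on the log2 scale.

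Rises larger in marrow were those of Timp4 (difference 6.24, with effects of 5.19 in marrow and -1.05 in lung), Mgp (5.75, with 5.37 and -0.38), Mmp11 (5.22, with 5.05 and -0.18), Arhgdib (4.45, with 4.91 and 0.45) and Rasl12 (4.09, with 4.72 and 0.63). The effect on Adm (difference 3.36, with 4.89 in marrow and 1.53 in lung), Apod (3.34, with 5.53 and 2.19), Crispld2 (3.18, with 4.68 and 1.496) and Igfbp3 (2.497, with 5.63 and 3.14) was positive in both tissues and larger in marrow, and of these the lung effect of Igfbp3 alone passed on its own (adjusted p = 0.0138, against 0.120 for Adm, 0.173 for Apod and 0.161 for Crispld2).

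The other genes that passed fell in marrow. The difference was -7.85 for Add2 (-4.46 in marrow and 3.39 in lung), -6.95 for Hemgn (-4.71 and 2.25), -6.43 for Slc4a1 (-5.45 and 0.98) and -4.50 for Sptb (-4.79 and -0.28). It was -5.74 for E2f2 (-5.28 in marrow and 0.47 in lung), -5.55 for E2f8 (-4.31 and 1.24), -4.81 for Ctse (-4.49 and 0.32) and -3.83 for Gatm (-4.41 and -0.58). None of these 8 lung effects passed on its own (adjusted p from 0.0545 to 0.957). Levels of some were near the floor in lung, where Add2 averaged 2.08 CPM in lung AML libraries and 0.199 CPM in lung controls, and Hemgn 1.65 and 0.344 CPM. Aqp1 and Alas2, red cell genes whose difference did not pass, had lung effects of -3.41 (adjusted p = 0.0503) and -2.52 (0.183).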

How the results depend on the processing

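The number of called genes was 7957 in a model of all 12 libraries, in place of 5467. Leaving out 1 library gave 3162 to 5826 calls, with 1678 to 3090 higher and 1471 to 2778 lower. Without control 1, 2 and 3 there were 3389, 3162 and 3597 calls (1918, 1678 and 1838 higher, 1471, 1484 and 1759 lower). A test against a 1.5-fold change called 1552 genes lower in AML and a model of all 12 libraries 4263, in place of 2543. Other settings kept both directions within 1.5 times: DESeq2 called 3541 higher and 2980 lower (84 genes without an adjusted p), limma-voom 2862 and 2948, no filter 2553 and 2337, and library totals alone 3360 and 1963.

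With the replicate number as a block, 3990 genes were called (2129 higher and 1861 lower). Deviations of same-numbered libraries from their group means correlated at -0.146, 0.0425 and -0.102. AML library 3 correlated best with control 1 (0.179) and AML library 1 with control 3 (0.103). The labels do not pair the libraries, and weak correlations of deviations within groups of 3 cannot show whether a shared number means more.

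For 234 named genes, 3965 values under alternatives were computed, of which 3767 kept their direction and side of the threshold, 158 lost the call, 24 gained it and 16 changed sign. None of the genes that changed sign was called in any setting concerned. With 1 library left out, log2 fold changes ranged over -2.55 to 6.93 for Chodl, -4.10 to 1.48 for Cilp, -1.68 to 3.72 for Inmt (each lowest without AML library 3), -4.69 to 1.95 for Mpo (highest without control 1, and 0.30 and 0.36 without AML libraries 1 and 2), -5.33 to 2.95 for Ngp (highest without control 1), -1.52 to 0.36 for Ager (highest without control 2), -0.17 to 0.68 for Bmp1 (lowest without AML library 2) and -0.21 to 0.15 for Nr3c1 (0.15 and 0.09 without AML library 1 and control 1). Cilp stood at -3.22 and Inmt at -0.16 under the block, Cilp at -1.01 with limma-voom, and Nr3c1 at 0.11 with library totals alone and 0.013 with the stricter filter. The cause of these changes was not tested. Several endothelial genes stood at a few CPM, although all 20 pan-endothelial genes had enough counts to be tested. The effect of depth on them was not tested.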
